A study of Mus musculus with 45 samples.

Results

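The comparison described here is between 2-cell-like cells (2CLCs) and mouse embryonic stem cells (mESCs) after EHMT2 had been targeted for degradation, and it asks which differences between the 2 states remain. It used 3 dTAG_2CLC and 3 dTAG_mESC libraries, 6 of the 45 samples in the series, and the matching 6 libraries from DMSO-treated cells served as the reference. All 12 libraries came from KH2 mESCs (BL6/129 background) whose Ehmt2 genes carry the FKBP12 degron with an HA tag and mCherry, so that the control cells carried the same alleles. The cells also held a MERVL-GFP reporter, were grown with serum and LIF on mitomycin-treated embryonic fibroblasts, received dTAG-13 or DMSO for 72 h, and were sorted into GFP- mESCs and GFP+ 2CLCs at 200000 cells per library. The reporter line was picked as single colonies and the labels number the libraries without naming a clone, so p-values measure the spread between these samples, which may be technical. EHMT2 protein was not measured in these libraries, and because GFP marks MERVL promoter activity, MERVL elements and the genes that switch on with them are tied to the sort itself.

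2CLCs are rare cells in mESC cultures that switch on transcripts of the mouse 2-cell embryo. These include the endogenous retrovirus MERVL, the Zscan4 genes and other multi-copy genes, many of which respond to the homeodomain transcription factor DUX. EHMT2 (G9a) and its partner EHMT1 place dimethylation on lysine 9 of histone H3, a mark of repressed chromatin, and loss of the enzyme is known to raise MERVL and germline genes in mESCs.

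Reads per library were recovered from deposited group means, and the libraries of a group are called A, B and C from the deepest to the shallowest, with no link to the numbers in the labels. The 12 libraries held 5026515 to 10943369 reads in the recovered genes. Replicates correlated at 0.9527 to 0.9764 across genes. Values are normalized counts, differences are on the scale log2(normalized count + 1), and a gene was called where the Benjamini-Hochberg adjusted p of limma was below 0.05 and the difference at least 2-fold. Of 55401 genes, 18899 were tested, and the median difference over them was -0.03. In 2CLCs without EHMT2, 2587 genes were higher (13.7% of those tested) and 1087 were lower (5.75%). The genes called higher moved much further: 1758 of them differed by at least 2 on the log2 scale, against 158 of the lower genes. Within the 6 dTAG libraries the 23 tested members of a 2C marker list summed to 2783 to 4670 normalized counts in mESCs and 72987 to 114733 in 2CLCs, so each library sat on the side its label gives. In bulk samples, fewer cells of a type and less RNA per cell cannot be told apart.

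The 2C genes were higher in 2CLCs without EHMT2. Of the 35 listed, 23 could be tested and 22 were higher, beside 13.7% of all genes, with a median difference of 4.80 over the 23. Of the 23, 3 passed the filter only through a 2CLC group, and all are tied to the sort. Zfp352 (chr4:90218820-90225702, GRCm38), a zinc finger gene expressed from the 2-cell stage, measured 54.8, 103 and 63 in the mESC libraries and 6565, 8665 and 5897 in the 2CLC libraries, a difference of 6.59 ± 0.29 (SE, adjusted p = 2.43e-09). Tdpoz5 (chr3:93960292-93961314), one of a clustered family of BTB and TRAF domain genes, measured 8.22, 11.7 and 9.95 against 1138, 1602 and 1323, a difference of 6.95 ± 0.32. Sp110 (chr1:85576899-85598817), a nuclear body protein gene, measured 51.4, 94.6 and 66.3 against 3109.9, 4313 and 3366, a difference of 5.68 ± 0.21. In each of these genes every 2CLC library stood far above every mESC library. Tcstv1 and Tcstv3, 2-cell genes of chromosome 13, differed by 5.50 ± 0.63 and 5.66 ± 0.55, and Ubtfl1, a gene related to the nucleolar factor UBTF, by 4.69. The member with the smallest called difference was Calcoco2, an autophagy receptor gene, at 269.8, 271 and 166 against 669, 722 and 535 (1.47 ± 0.26). Zfp750, a zinc finger gene, was not called: it measured 79.9 ± 3.74 in mESCs and 56.8 ± 19.2 in 2CLCs (SD, n = 3), a difference of -0.55 with an adjusted p of 0.142. Obox5 was under the filter on low values.

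The other 11 2C genes were too abundant for their reads to be recovered, and only the authors' group means are known. All 11 means were higher in 2CLCs, by 15.69-fold (Usp17la) to 30.38-fold (Usp17lc). Zscan4c had a mean of 1933.5 in mESCs and 52636.4 in 2CLCs (27.22-fold), and Zscan4f one of 2116.7 and 51973.1 (24.55-fold). The Zscan4 genes code for SCAN domain zinc finger proteins that bind telomeres and are the best known markers of the state. Members of multi-copy families share reads, so that single members of Zscan4, Usp17l, Tdpoz, Spopfm and Obox are uncertain.

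The start sites of these genes are shown because Zscan4 genes are known DUX targets and because the members rose together. The windows run from 250 bases before to 50 after the start in RefSeq (GRCm38.p6), written 5′ to 3′ along the gene, with capitals for matches on either strand to the DUX-type site, whose match here reads TGATAGAATCA, and to the TATA box TATAAA.
Zscan4c, chr7:11005495-11005794 (plus strand): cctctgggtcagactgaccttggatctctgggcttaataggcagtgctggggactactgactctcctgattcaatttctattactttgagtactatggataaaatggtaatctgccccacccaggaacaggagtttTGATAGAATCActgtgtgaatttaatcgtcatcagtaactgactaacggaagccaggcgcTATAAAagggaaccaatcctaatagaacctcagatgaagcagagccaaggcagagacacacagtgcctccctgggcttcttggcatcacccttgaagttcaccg
Zscan4f, chr7:11397665-11397964 (plus strand): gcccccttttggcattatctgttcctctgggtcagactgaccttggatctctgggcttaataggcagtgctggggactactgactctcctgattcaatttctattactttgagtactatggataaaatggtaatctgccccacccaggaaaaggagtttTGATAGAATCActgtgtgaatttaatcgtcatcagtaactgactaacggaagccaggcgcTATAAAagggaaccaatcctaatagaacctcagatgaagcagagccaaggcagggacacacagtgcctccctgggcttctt
Usp17ld, chr7:103252456-103252755 (minus strand): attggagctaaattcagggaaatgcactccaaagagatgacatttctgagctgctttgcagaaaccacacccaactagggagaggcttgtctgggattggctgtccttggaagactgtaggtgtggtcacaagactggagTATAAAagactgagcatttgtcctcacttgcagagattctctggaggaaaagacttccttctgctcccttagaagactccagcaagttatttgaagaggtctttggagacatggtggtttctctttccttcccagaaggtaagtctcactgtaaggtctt
Zfp352, chr4:90218570-90218869 (plus strand): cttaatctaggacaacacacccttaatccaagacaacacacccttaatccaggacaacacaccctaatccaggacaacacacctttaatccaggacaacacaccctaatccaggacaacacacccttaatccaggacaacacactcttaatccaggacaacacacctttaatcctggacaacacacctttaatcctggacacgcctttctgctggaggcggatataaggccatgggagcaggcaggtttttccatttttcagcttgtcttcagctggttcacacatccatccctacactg
The 2 Zscan4 windows were the same in 275 of 277 bases when shifted by 23, and both hold the DUX-type site and a TATA box. All 4 Zscan4 windows in the table hold both. Usp17ld, a deubiquitinase gene that measured 359 ± 106 in mESCs and 8989.6 ± 1721 in 2CLCs, has a TATA box starting 110 bases before the start, and Zfp352 has neither run of letters. A window was found for 11851 of the tested genes (62.8%). TATAAA occurred in 16.1% of windows of genes called higher, 8.33% of those called lower and 6.58% of those not called, against 14.2% of all promoters in the table. GGGCGG, the GC box, occurred in 44.1%, 57.0%, 64.5% and 35.9% in the same order, and none of these motifs can overlap another. The DUX-type site occurred in 2 of 1239 windows of genes called higher, in 10 of 9868 of genes not called, and in 0.233% of all promoters. The called and not called classes hold tested genes only. Zscan4c and Zscan4f, too abundant for their reads to be recovered, are therefore not in them.

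**Figure D1:**
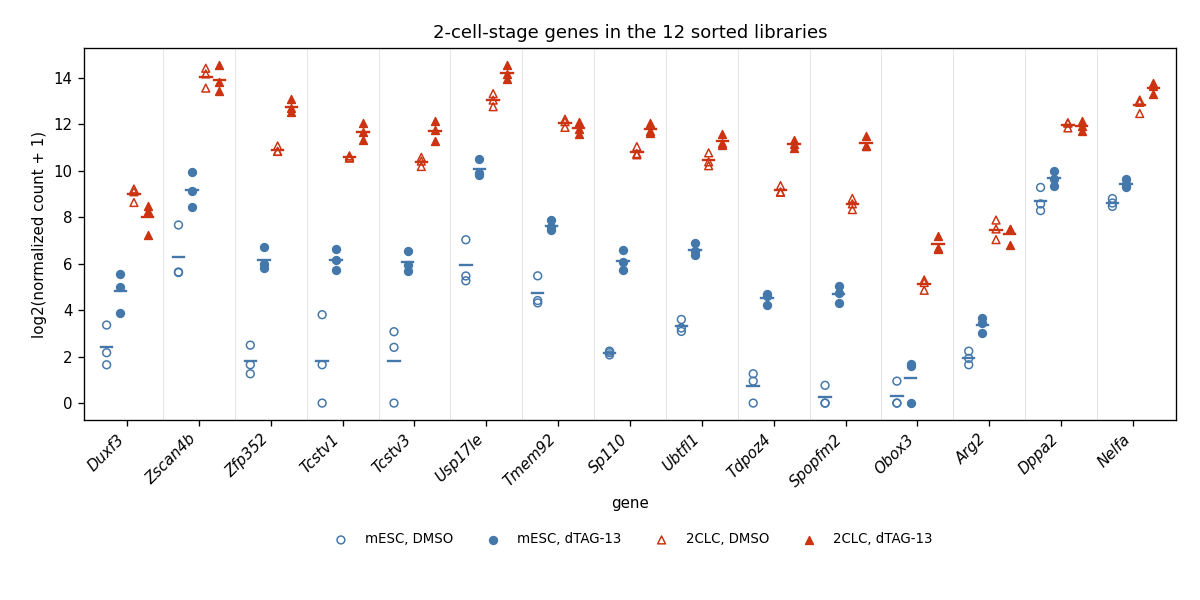
Levels of 15 genes tied to the 2C state in the 12 sorted libraries, as log2(normalized count + 1) on the vertical axis (1 point per library; circles mESCs, triangles 2CLCs; open DMSO, filled dTAG-13; bars mark means). With dTAG-13 every 2CLC library lies above every mESC library for each gene, and for most of them the filled circles lie above the open circles.

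Among 7 listed regulators that activate the 2C program, 6 were in the file and 3 were higher in 2CLCs, beside 13.7% of all genes. Nelfa (chr5:33897916-33936413), a maternal factor and subunit of the negative elongation factor, measured 793, 684 and 625 in mESCs and 12681, 13928 and 9980.1 in 2CLCs, a difference of 4.11 ± 0.17 (adjusted p = 2.33e-09). Dppa2, a SAP domain protein that acts upstream of Dux, measured 1027, 809.5 and 642 against 4471, 3926 and 3368 (2.26 ± 0.23). Its partner Dppa4 averaged 651.5 and 667.4, a difference of 0.04 that was not called (95% interval -0.36 to 0.44). Duxf3 (Dux, chr10:58229979-58232675) measured 13.7, 45.4 and 31 in mESCs and 152, 353 and 306 in 2CLCs, a difference of 3.19 ± 0.48 (adjusted p = 0.000136). Smarca5, a chromatin remodeller, and Gata2 had differences of 0.03 and 0.15 and were not called. Of 27 tested genes whose products are known to restrain the 2C state, none was called in either direction, against 13.7% and 5.75% of all genes, and their median was -0.13. The extremes were Chaf1b, a subunit of the histone chaperone CAF-1, at 336 ± 39.6 and 174 ± 53.4 (-0.98, adjusted p = 0.0054), and Rif1, a telomere and replication timing factor, at 2803 ± 679 and 4826 ± 1380.4 (0.77, adjusted p = 0.0314). Neither reached 2-fold.

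The Ehmt2 transcript does not check the labels, since the degron acts on the protein. It measured 45.9, 87.6 and 169 in dTAG_mESC and 36.5, 59.6 and 106 in dTAG_2CLC, with ranges that overlapped and a difference of -0.51 (95% interval -1.41 to 0.39, adjusted p = 0.386). None of the 7 genes of the EHMT complex list was called. Over all genes 13.7% were higher and 5.75% lower, so that for so few genes this is near the background. Ehmt1, Wiz (a zinc finger partner) and Cdyl2 had differences of -0.12, -0.57 and -0.82.

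A minority of the pluripotency genes was lower in 2CLCs. Of 25 tested, 8 were lower (5.75% of all genes were) and Dppa3, a maternal factor, was the only one higher. The median was -0.72, and 21 of 25 lay below 0. Fut9 (chr4:25609332-25800244), which makes the SSEA1 surface sugar, measured 466, 589.7 and 608 in mESCs and 78.7, 119 and 151 in 2CLCs, a difference of -2.28 ± 0.27. Klf4 (chr4:55527143-55532466), a core reprogramming factor, measured 2283, 3154 and 2692 against 972, 1038 and 1098 (-1.38 ± 0.16, adjusted p = 1.11e-05). Lifr, the LIF receptor, measured 1246, 1211 and 1056 against 428, 427 and 526 (-1.35 ± 0.17). Tet2, which oxidizes methylated cytosine, measured 806, 1307 and 1467 against 317, 442 and 648 (-1.36 ± 0.25). In these 4 genes the groups did not overlap. Tfcp2l1, Utf1 and Gdf3 were called at -1.07, -1.19 and -1.04, but each fell short without 1 library: Tfcp2l1 at -0.99 without 2CLC library A, Utf1 at -0.99 without mESC library A and -0.93 without 2CLC library B, and Gdf3 at -0.85 without mESC library A, -0.95 without 2CLC library B and -0.95 without 2CLC library C. Pou5f1, the gene of OCT4, was below the fold needed at 4769, 4579 and 5266 against 3416, 3153 and 3391 (-0.55 ± 0.12, adjusted p = 0.00275). Nanog measured 8747, 7999 and 6608 against 11711, 9777 and 9063, a difference of 0.39 (95% interval 0.06 to 0.71, adjusted p = 0.0652). For the 3 listed genes not tested, Sox2, Esrrb and Tdgf1, only the authors' means are known. Those in 2CLCs were 0.3992, 0.493 and 1.045 times those in mESCs. Tet1, of the DNA methylation list and also known only from means, was at 0.4792.

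**Figure D2:**
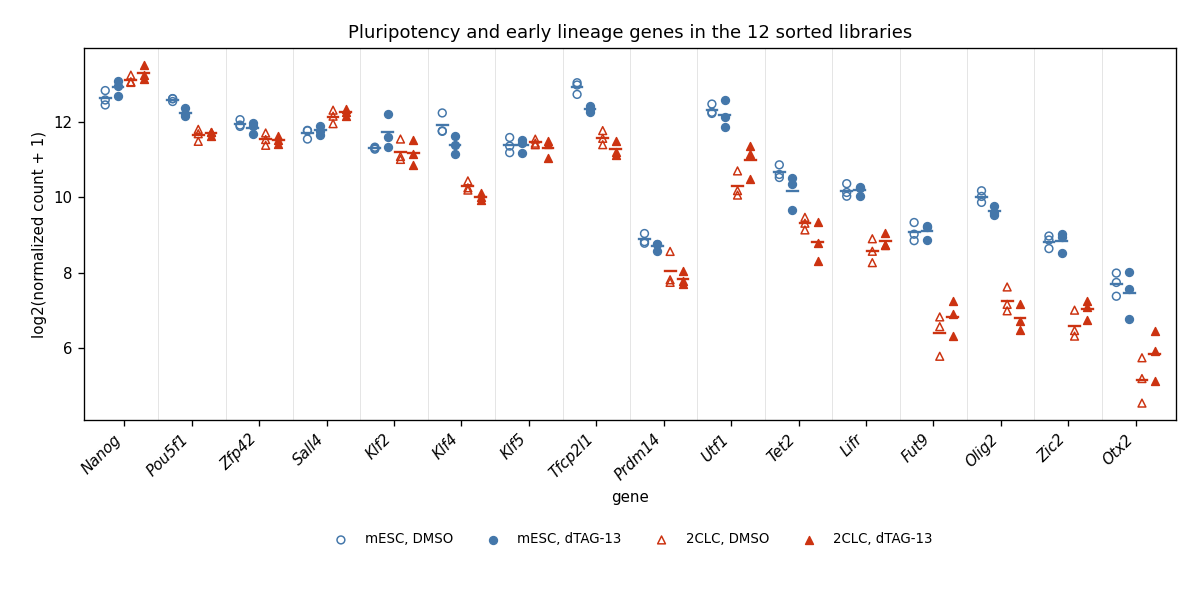
Levels of 16 pluripotency and early lineage genes in the 12 sorted libraries, as log2(normalized count + 1) (1 point per library; circles mESCs, triangles 2CLCs; open DMSO, filled dTAG-13; bars mark means). Nanog, Sall4 and Klf5 stay near the mESC level, whereas Klf4, Lifr, Fut9, Olig2, Zic2 and Otx2 lie lower in 2CLCs under both treatments.

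Of 16 tested formative and primed genes, which mark the exit from naive pluripotency, 4 were lower (Lef1, Zic2, Otx2 and Lefty2) and 2 were higher (Sox3 and Pou3f1), with a median of 0.40. Over all genes 5.75% were lower and 13.7% higher, so that the share called higher was near the background. Lef1 (chr3:131110471-131224356), a transcription factor of WNT signalling, measured 87, 58.7 and 109 in mESCs and 10.3, 9.72 and 11.6 in 2CLCs (-2.86 ± 0.50, adjusted p = 0.000552). Zic2 measured 364, 494 and 521 against 107, 135 and 151 (-1.80 ± 0.21), and Otx2, a factor of the epiblast and anterior brain, 260.3, 109 and 189 against 87.1, 34 and 59.8 (-1.62 ± 0.39). Every mESC library lay above every 2CLC library in these genes. Lefty2 fell short of 2-fold without mESC library B (-0.99 against -1.16), and Pou3f1 without mESC library A or 2CLC library C (0.85 and 0.87 against 1.02).

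Trophoblast genes were also divided. Of 12 tested, Krt8, Krt18, Gata3 and Ascl2 were higher and Tfap2c and Tead4 were lower, with a median of 0.66. The shares over all genes were 13.7% higher and 5.75% lower, here and for the endoderm genes below. In each of these lists 1 tested member passed the filter only through a 2CLC group. The paired keratins of simple epithelia, Krt8 and Krt18, measured 23.4 ± 6.73 and 10.2 ± 5.41 in mESCs and 144 ± 27.8 and 85.4 ± 22 in 2CLCs, differences of 2.59 ± 0.27 and 3.02 ± 0.36. Tfap2c measured 794, 597 and 579 against 221, 123 and 223 (-1.83 ± 0.27, adjusted p = 0.000106). Tead4, the partner of YAP in trophectoderm, was lower by a similar measure (-1.46 ± 0.27). Of 14 tested primitive endoderm genes, 5 were higher and Hnf4a was lower, with a median of 0.99. Sox17, an endoderm transcription factor, measured 10.3, 18.8 and 22.1 against 70.3, 105 and 79.7 (2.29 ± 0.42). Gata4 and Dab2 were higher by 1.19 and 1.43. Gata6 and Foxa2, at 1.54 and 1.82, lost their calls without 2CLC library B (Gata6, 1.35) or without mESC library A, 2CLC library A or 2CLC library C (Foxa2, 1.34 to 1.76, and also with no filter or with only the 6 dTAG libraries, both at 1.82).

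Fibroblast genes were measured because the cells grew on feeders. Of 17 tested, 16 lay above 0 and 3 were called higher (Thy1, Col6a1 and Col1a2), with a median of 0.86. The share called was near the 13.7% of all genes. Their sum was 1591 to 1981 normalized counts in mESCs and 2313 to 5025 in 2CLCs, and Lum, Dcn, S100a4 and Fap had means of 0 to 6.003 in every sorted group. Thy1, a surface glycoprotein, measured 199, 188 and 202 against 576, 552 and 535 (1.49 ± 0.17). Col1a2 measured 174, 246 and 228 against 282, 762 and 404 (1.05 ± 0.35), and 0.66 without 2CLC library B, where it was no longer called. It also lost its call without mESC library A (0.90), mESC library C (1.10) or 2CLC library C (1.12). The part of feeder cells in the results on the primitive endoderm and trophoblast genes was not tested.

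Some germline genes were higher. Of 18 tested, 7 were higher, beside 13.7% of all genes, and none was lower, with a median of 0.31. Of the 18, 3 passed the filter only through a 2CLC group. Dazl (chr17:50279395-50293636), an RNA-binding protein needed for germ cells, measured 249, 193 and 158 in mESCs and 849.6, 771 and 734 in 2CLCs (1.99 ± 0.16, adjusted p = 3.81e-07). Stk31, a kinase of the testis, measured 14.4, 26.6 and 17.7 against 141, 337 and 226 (3.47 ± 0.41). Taf7l, Sycp1, Mael, Slc25a31 and Tdrkh differed by 2.55, 2.26, 1.75, 1.61 and 1.33. Ddx4, Tdrd1 and the meiotic Sycp3 had differences of 0.31, -0.13 and 0.09 and were not called. Among 20 maternal-effect genes only 7 passed the filter, 2 of them only through a 2CLC group. Oog1 alone was called, from a mean of 1.943 to 32.31, so it was near the floor in mESCs.

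Signalling and stress genes were divided, beside 13.7% of all genes called higher and 5.75% called lower. In the signalling list 4 of 20 were higher and 3 lower. Il6st, the gp130 co-receptor through which LIF signals, measured 958, 999.6 and 998 against 338, 484 and 362 (-1.34 ± 0.14). Id1 and Id3, targets of BMP signalling, rose from 391 ± 16.4 and 219 ± 17.5 to 981 ± 99.6 and 676 ± 131 (1.32 ± 0.13 and 1.61 ± 0.29). Axin2, a feedback target of WNT signalling, measured 125, 115 and 134 against 277, 429 and 389 (1.52 ± 0.21), so that it and Lef1 moved in opposite directions. The fourth member higher, Spry2, was at 1.01 and lost its call without mESC library B (0.95), 2CLC library A (0.99) or 2CLC library C (0.95). Of 15 genes of the integrated stress response, 4 were higher and Nupr1 was lower (-1.32 ± 0.32). Ppp1r15a, which restores translation after stress, measured 373, 472 and 423 against 1678, 1985 and 1669 (2.07 ± 0.14, adjusted p = 7.43e-08), and Atf3 70 ± 18.8 against 259 ± 73.1 (1.87 ± 0.28). Cebpb and Ddit4, at 1.13 and 1.20, lost their calls without mESC library C or 2CLC library B (Cebpb, 0.99 and 0.92) and without mESC library B (Ddit4, 0.99). Atf4, the transcription factor of the pathway, was not called at 0.77. Of 20 p53 targets, Perp, Bax and Bbc3, which promote cell death, were lower, with differences of -1.36, -1.20 and -1.17. Fas and Plk2 were higher at 1.82 and 1.13, and lost their calls without mESC library A, mESC library B, 2CLC library A or 2CLC library B (Fas, 1.47 to 1.89, and also with no filter or with only the 6 dTAG libraries, both at 1.82) and without 2CLC library B (Plk2, 0.92). Cdkn1a and Mdm2 had differences of -0.14 and 0.48. Of the p53 targets, 1 passed the filter only through a 2CLC group. None of 17 glycolysis genes, 22 cell cycle genes or 16 ribosome biogenesis genes was called in either direction, with medians of -0.30, -0.23 and -0.20. Of the glycolysis genes tested 16 lay below 0. Slc2a3 and Pkm, too abundant to test, had means in 2CLCs that were 1.483 and 1.118 times those in mESCs. Hk1 (-0.95) and the cell cycle gene Ccnd3 (-0.96) were each called lower in 3 alternatives. Of 7 tested genes of DNA methylation, Tet2 was lower and Dnmt3l higher at 1.22 (0.91 without mESC library B and 0.97 without 2CLC library A, where it was no longer called).

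**Figure D3:**
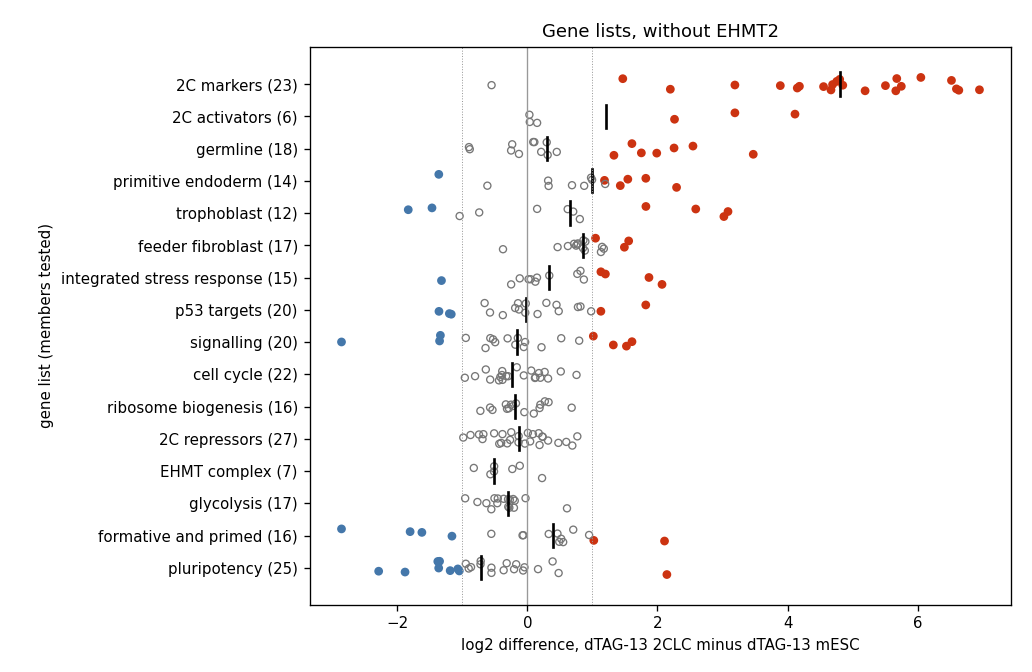
Difference between dTAG_2CLC and dTAG_mESC on the scale log2(normalized count + 1) for the tested members of 16 gene lists (1 point per gene; filled red called higher, filled blue called lower, open grey not called; black bars are list medians and dotted lines mark 2-fold). The 2C markers stand at a median of 4.80, whereas the 2C repressor, cell cycle, glycolysis and ribosome biogenesis lists hold no called gene.

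The 12 genes with the largest called differences were Tdpoz5, Tdpoz7, Tdpoz4, Zfp352, Spopfm2, Spdye4b, AU015228, Olfr376, AF067063, Vmn2r94, Spopfm3 and AF067061, from 6.95 down to 6.09. AU015228 measured 4.11, 23.5 and 15.5 in mESCs and 797, 1252 and 971 in 2CLCs. Olfr376, annotated as an olfactory receptor, measured 27.4, 18 and 11.1 against 1636, 1455 and 1240.4. Spdye4b and Vmn2r94 were near the floor in mESCs, with means of 1.868 and 1.672. The 12 largest differences in the other direction were smaller, from -3.15 (Piwil4) to -2.47 (Zfp827). Olig2 (chr16:91225457-91228677), a neural bHLH factor also transcribed in mESCs, measured 876, 767 and 744 against 143, 88.7 and 105 (-2.84 ± 0.20, adjusted p = 7.99e-08). Trp53i11, a p53-inducible gene, measured 1227, 953 and 820.4 against 230.4, 135 and 136 (-2.60 ± 0.22), and Pnma2, a gene of the paraneoplastic antigen family, 256, 313 and 248 against 38.4, 40.1 and 41.5 (-2.73 ± 0.18). The 2CLC libraries of these 3 genes all lay below the mESC libraries. Ankrd34a, AI467606, Lef1, Fignl2, Cd3e, Pirt and Kbtbd11 made up the rest.

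Other families were chosen after their values were seen and are given as counts, beside 13.7% of all genes called higher and 5.75% called lower. Of 70 tested replication-dependent and variant histone genes, 65 were higher and none was lower, with a median of 2.98, and 58 of the 70 reached 10 normalized counts in mESCs. The histone genes summed to 5291 to 5702 normalized counts in mESCs and 20634 to 31350 in 2CLCs. H4c9 measured 235, 406 and 248 against 4135, 5669 and 3353 (3.90 ± 0.29), and H3c3 102, 123 and 89.6 against 1313, 1580.2 and 996 (3.60 ± 0.20). The cell cycle list, in contrast, held no called gene. Of the Obox homeobox family, including pseudogenes, 34 of 34 tested were higher (median 4.58), but only 18 reached 10 normalized counts in mESCs, and the others passed the filter through another group. The same holds for olfactory receptors: 1410 were in the file, 365 had a read and 49 were tested, of which 44 were higher and 1, Olfr985, was lower. Of 32 tested Hox genes 12 were higher and none lower, with a median of 1.16, but only 21 reached 10 normalized counts in mESCs. Hoxd13 measured 19.9, 51.6 and 35.4 against 171, 185 and 159. Of 76 tested ribosomal protein genes, 1 was higher and 2 were lower. The one higher was Rpl10l, a testis-expressed retrocopy of Rpl10, at 1506, 1793 and 1562 against 3516, 4117 and 3569 (1.20 ± 0.16). By gene type, 145 of 228 unprocessed pseudogenes and 219 of 574 lincRNAs were higher, against 1469 of 14233 protein-coding genes (10.32%). Genes low in mESCs could pass the filter only through another group, and for the gene types their number was not counted.

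Most genes called without EHMT2 were also called with it. In DMSO-treated cells 3001 genes were higher in 2CLCs (15.9%) and 1467 lower (7.76%), and the 2 comparisons share no library. Of the genes higher without EHMT2, 2241 were higher with it too, 86.63% of the dTAG-13 set and 74.68% of the DMSO set. Over these 2241 the median difference was 3.14 with dTAG-13 and 3.35 with DMSO. Of the genes lower, 731 were lower with both treatments, 67.25% and 49.83% of the sets, with medians of -1.37 and -1.59. Of the 346 genes called higher with dTAG-13 alone, 328 had the same sign with DMSO, and in 4 the difference between the treatments was itself called.

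The difference between the differences was tested directly, as dTAG-13 minus DMSO. It was called lower in 171 genes (0.905%) and higher in 15 (0.0794%). All 171 were higher in 2CLCs with DMSO and 162 of them still were with dTAG-13, with a median of 4.59 against 7.51. Over the 171 genes the median log2 ratio of group means, dTAG-13 to DMSO, was 3.32 in mESCs and 0.71 in 2CLCs. The mean with dTAG-13 was above that with DMSO in 170 of 171 genes in mESCs and in 134 in 2CLCs. The counts moved with single libraries. The 171 became 284 without DMSO_mESC library B, 106 without DMSO_mESC library C, 77 without DMSO_2CLC library A, 86 without DMSO_2CLC library C, 97 without dTAG_mESC library B, 95 without dTAG_2CLC library A and 45 without dTAG_2CLC library C. The 15 became 5 without DMSO_mESC library A, 7 without DMSO_mESC library C, 4 without DMSO_2CLC library C and 3 without dTAG_2CLC library C.

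Of the 23 tested 2C genes, 11 were among those with a narrower gap. Sp110 measured 3.5, 3.71 and 3.21 in DMSO_mESC and 2101, 1705 and 1644 in DMSO_2CLC. Its gap was thus 8.66 with DMSO and 5.68 with dTAG-13, a difference of -2.98 ± 0.30 (adjusted p = 0.00075). The mESC level of Sp110 was 20.4 times that of DMSO_mESC, but only 1.968% of that in dTAG_2CLC. The paper describes the sorted populations as highly pure. The part of 2CLCs remaining in the GFP- fraction in the mESC levels of 2C genes was not tested. Tmem92, a membrane protein gene, measured 18.9, 43.5 and 20.3 in DMSO_mESC and 191, 234 and 176 in dTAG_mESC, while its 2CLC means were 4302 and 3662 (-3.15 ± 0.36, adjusted p = 0.00107). Zfp352 had 2.72 ± 1.69 in DMSO_mESC and 1928 ± 185 in DMSO_2CLC, so that its means were higher with dTAG-13 in both states. Its difference of -2.51 was not called without dTAG_2CLC library C (-2.40). Pdha2, a testis retrocopy of a pyruvate dehydrogenase subunit, showed 2.8, 7.41 and 3.21 in DMSO_mESC and 54.8, 62.6 and 79.6 in dTAG_mESC, and reached 107 ± 8.88 and 169 ± 23 in 2CLCs (-3.04 ± 0.43).

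Duxf3 had a lower mean with dTAG-13 than with DMSO in 2CLCs and a higher one in mESCs. It measured 593, 396 and 546 in DMSO_2CLC against 152, 353 and 306 in dTAG_2CLC, and 3.5, 9.26 and 2.14 in DMSO_mESC against 13.7, 45.4 and 31 in dTAG_mESC. The dTAG-13 mESC mean was 11.116% of the 2CLC mean, against 0.971% with DMSO. The difference of -3.40 ± 0.67 (adjusted p = 0.0262) was not called in 8 of the 12 fits that left out 1 library, with values of -3.03 to -3.53. The libraries were A and C of DMSO_mESC, A and C of DMSO_2CLC, B and C of dTAG_mESC, and A and C of dTAG_2CLC. Nelfa, in contrast, had a gap of 4.19 with DMSO and 4.11 with dTAG-13, a difference of -0.08 (adjusted p = 0.986). The pluripotency list held no called difference in 25 genes, which is near the shares over all genes (0.905% lower and 0.0794% higher). Tdpoz5 had gaps of 7.11 with DMSO and 6.95 with dTAG-13.

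In the 15 genes called higher by this test the gap was wider or less negative with dTAG-13, and 9 of them were called higher in 2CLCs with DMSO. Slc19a3 (chr1:83012523-83038448), a thiamine transporter gene, measured 31.5, 22.2 and 17.1 in DMSO_mESC and 30.8, 15.6 and 21 in dTAG_mESC. In 2CLCs it measured 77.3, 88 and 49.3 with DMSO and 579, 602 and 495 with dTAG-13, so that the gap was 1.56 and 4.62 (difference 3.06 ± 0.43, adjusted p = 0.00497). Csrnp3, a nuclear protein gene, had mESC means of 335 and 325 and 2CLC means of 1070.1 and 2588 with DMSO and dTAG-13 (1.32 ± 0.27). Eomes, a T-box factor of trophoblast and mesendoderm, measured 157, 102 and 118 in DMSO_mESC, 41.1, 39.1 and 43.1 in dTAG_mESC, 57.6, 53.4 and 50.9 in DMSO_2CLC and 71.2, 52.3 and 83 in dTAG_2CLC (1.89 ± 0.34, adjusted p = 0.0157). Its gap of -1.18 with DMSO thus became 0.71 with dTAG-13. The Eomes call was lost without DMSO_mESC library A (1.72), DMSO_2CLC library C (1.85) or dTAG_2CLC library C (1.74). The Csrnp3 call was lost in 7 of the 12 fits that left out 1 library (1.15 to 1.39): A, B and C of DMSO_mESC, B and C of DMSO_2CLC, and B and C of dTAG_2CLC.

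**Figure D4:**
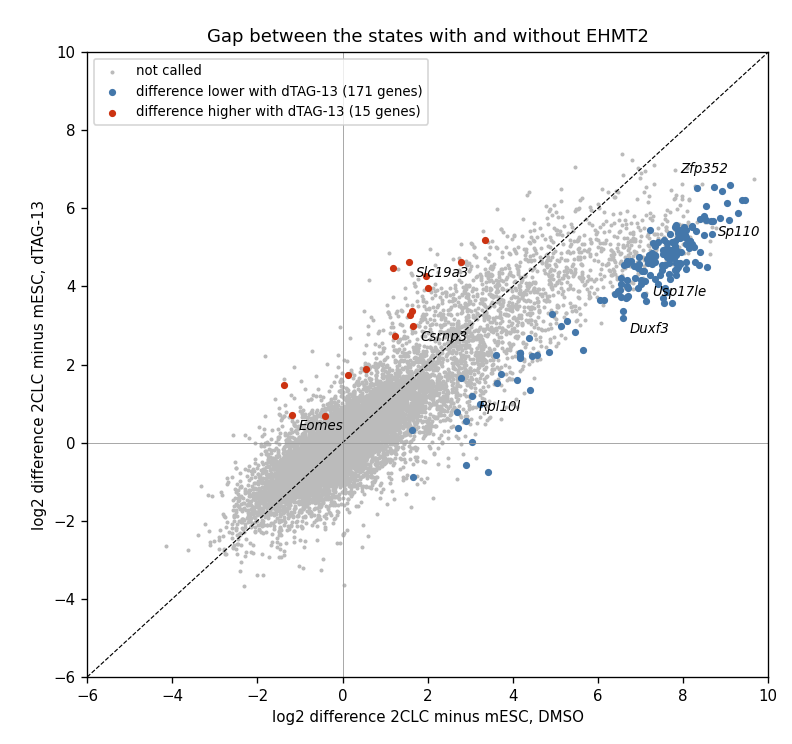
Log2 difference between 2CLCs and mESCs with DMSO (horizontal axis) and with dTAG-13 (vertical axis) for the 18899 tested genes (1 point per gene; grey not called in the test of the difference; blue, 171 genes with a lower difference with dTAG-13; red, 15 with a higher one; the dashed line marks equal differences). The blue points lie below the line at a median of 7.51 across and 4.59 up.

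Repeats were counted by family name over all copies. Of 913 tested, 572 were higher in 2CLCs without EHMT2 (62.7%) and 2 were lower (0.219%), ERVB7_1-LTR_MM and MamTip1 (the latter named after its values were seen). The whole group was shifted: the median was 1.42, a 2.674-fold difference, and 869 of 913 lay above 0. Rescaled to a median of 0 over the repeats, 129 were higher (14.1%) and 49 lower (5.37%). All repeats together took 8.45% of normalized counts in dTAG_mESC and 33.23% in dTAG_2CLC, of which MERVL-int and MT2_Mm made up 0.946% and 21.533%. All repeats other than these 2 made up 7.51% and 11.69%. The tested repeats, which leave out MERVL and other highly abundant repeats, took 3.6, 6.06 and 5.12% in the mESC libraries and 8.28, 13.63 and 11.47% in the 2CLC libraries. The largest share of mESCs stayed below the smallest share of 2CLCs.

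MERVL-int, the internal part of the element that drove the sort, had a mean of 78864.9 in dTAG_mESC and 3256077 in dTAG_2CLC, 41.29-fold. Its promoter MT2_Mm went from 11086.0 to 458867.3 (41.39-fold). With DMSO the folds were 238.5 and 216.5, from mESC means of 6890.8 and 842.2. These are the authors' means, with no error or test, and they follow from the gate. Among repeats outside MERVL, MT-int, the internal part of an ERVL-MaLR element active in oocytes and early embryos, measured 144, 272 and 206 in mESCs and 5743, 8786 and 5784 in 2CLCs, a difference of 5.04 ± 0.41 and 3.64 above the repeat median. MER89, an ERV1 element, measured 389, 315 and 241 against 8533, 8651 and 5991 (4.62 ± 0.41). X7C_LINE, of the CR1 family, measured 123, 169 and 121 against 3201, 3941 and 2378 (4.51 ± 0.42). No 2CLC library overlapped a mESC library in these repeats. IAPEY5_I-int, X2_LINE, ERVB4_3-LTR_MM, LTR86A2 and MuRRS-int completed the 8 largest, from 4.79 to 4.37, and of these IAPEY5_I-int, X2_LINE and ERVB4_3-LTR_MM had mESC means of 4.08 to 7.26. GSAT_MM, the major satellite, had 1.37 ± 1.73 in mESCs and 16.4 ± 11.2 in 2CLCs (2.81 ± 0.79), and was not called after rescaling (1.83) or with edgeR. ORR1A0-int, at 2936, 3832 and 2906 against 11163, 16493 and 12182, was called at 2.03 but not after rescaling (0.63).

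The retrotransposon classes differed in their medians. LTR elements had 400 of 560 called higher and a median of 1.57, with ERVK at 1.68 (203 of 266), ERVL at 1.56, ERV1 at 1.48 and ERVL-MaLR at 1.47. LINEs had a median of 1.33 (87 of 140). The young L1 family L1Md_Gf measured 215, 872 and 597 against 1959, 5627 and 3926 (2.86 ± 0.40), and the authors' means of L1Md_A and L1Md_T were 7.564 and 5.983 times higher in 2CLCs. The tested DNA transposons and SINEs had medians below the repeat median, at 0.97 (67 of 162) and 0.56 (2 of 22). The most abundant SINEs were not tested, and only the authors' means are known. Of these, B2_Mm1a, B2_Mm1t and B2_Mm2 were 4.676, 3.379 and 2.27 times higher in 2CLCs. The others ran from 1.533 (PB1D10) to 1.942 (B1F), against 2.674 at the median of the tested repeats. B1_Mm, an Alu-type SINE, measured 5520.1, 7664 and 6655 against 8815, 14392 and 12566 (0.83 ± 0.39, not called), and -0.57 after rescaling. Some LTR families had lower means. ETnERV-int and, chosen after their values were seen, MMETn-int and RLTR13G, all of the ERVK type, had means in 2CLCs that were 0.5138, 0.4509 and 0.4076 of those in mESCs. IAPEz-int, also ERVK and a known target of H3K9 methylation, went from 7525.9 to 31750.9 (4.219-fold, and 2.031-fold with DMSO). ERVB7_1-LTR_MM measured 4630.5, 2120.4 and 2329.5 against 1813, 1217 and 1091 (-1.08 ± 0.40), and was not called without mESC library A (-0.73) or 2CLC library C (-0.93). The other 7 smallest of the named repeats, ERVB4_1C-LTR_Mm, X7B_LINE, MER34B-int, L1M3de, MER31B, Charlie2b and RLTR1A2_MM, ran from -0.81 to -0.03 and were not called. With DMSO 553 repeats were higher and 503 were higher with both treatments. By limma no repeat had a called difference between dTAG-13 and DMSO, with 10 below an unadjusted p of 0.05. Rescaled values gave 1 lower. The spread was pooled over all repeats and the errors of single differences were wide, so the absence of calls does not show equal gaps. The median difference over the tested repeats was 0.11. The gap of X7C_LINE was 6.78 with DMSO and 4.51 with dTAG-13 (-2.27 ± 0.59, adjusted p = 0.115). That of MER89 went the other way, from 3.81 to 4.62 (0.81 ± 0.575). MERVL-int, MT2_Mm and IAPEz-int, known only from the authors' means, were not in this test. With edgeR and TMM scaling, 168 repeats were higher and 105 lower in the dTAG-13 comparison.

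**Figure D5:**
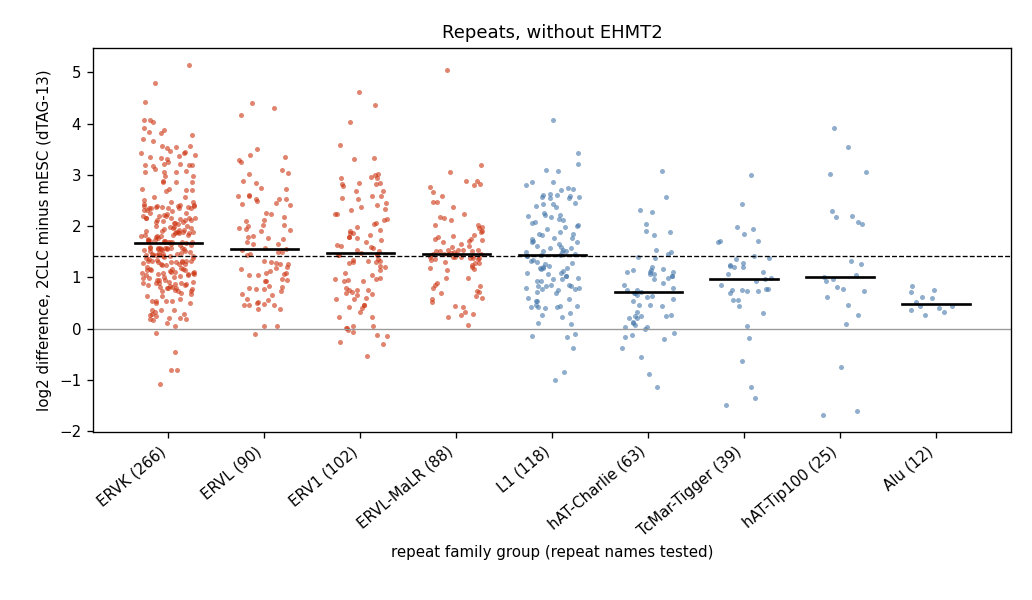
Difference between dTAG_2CLC and dTAG_mESC on the scale log2(normalized count + 1) for the tested repeats of 9 families. Each point is 1 repeat, red in the ERV families and blue in the others, and calls are not marked. Black bars are family medians, and the dashed line is the median of 1.42 over all 913 repeats. ERVK, ERVL, ERV1 and ERVL-MaLR lie around or above the line, whereas hAT-Charlie and Alu lie mostly below it.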

How the data were processed

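Libraries were made from sorted cells by low-input RNA-seq. Per the study's methods and the submitters' processing notes, the authors trimmed reads with Trim Galore 0.6.7, aligned them to mm10 with STAR 2.7.10 keeping 1 place per multimapping read at random and without introns, counted genes (GENCODE vM25) and repeats with TEcounts, and normalized with DESeq2 1.34.0. The deposited values used here are signal: group means of counts normalized by the authors with size factors over genes and repeats. The comparison tables of the authors hold fold changes, standard errors, p-values and labels of behavior and were not used.

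Each mean has 15 significant digits and is a weighted sum of 3 whole read counts, which were solved for. On 12 other libraries with known counts, 99.06% to 99.75% of genes were solved and 100% of these were right. In the sorted groups 99.62% to 99.86% of genes with reads were solved. The rest are the most abundant, and only their means are given. Recovered reads were divided by the size factors, and log2(value + 1) was tested with limma 3.58.1 (limma-trend, R 4.3.3) over the 12 sorted libraries. Features had a mean of at least 10 in at least 1 group, and p-values were adjusted over genes and over repeats apart. The fit was checked on simulated data. For repeats the spread was pooled over all repeats. Log2 differences understate changes of low genes. Alternatives used edgeR 4.0.16 and DESeq2 1.42.0 on the recovered reads, other pseudocounts and filters, rescaling, a stricter fold and leaving out each library. Depth was 5026515 to 10943369 solved gene reads per library. The floor was fixed at 3 reads over a group. By the size factors this is 0.82 (dTAG_mESC) to 1.20 (dTAG_2CLC) normalized counts.

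The members and lists were chosen with earlier results of these data known. Genes and repeats named were taken from the 12 largest and 12 smallest called genes (mean of at least 50, named symbol), list members, the 8 largest and 8 smallest called differences between treatments (6 were found on the higher side, and 1 on the lower side is not reported here), and for repeats the 8 largest, 8 smallest and 10 set by name. Gene coordinates are of GRCm38 (GENCODE).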

Additional observations from a re-analysis of the deposited data

Results flagged for a closer look

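The gap between 2CLCs and mESCs differed between dTAG-13 and DMSO, by the limma contrast of the differences, in the named genes that follow. Values are dTAG-13 minus DMSO on the log2 scale. The gap was narrower or more negative with dTAG-13 in Duxf3 (-3.40), Fthl17d (-3.26), Ankrd22 (-3.25), Tmem92 (-3.15), Phf11a (-3.06), Pdha2 (-3.04), Sp110 (-2.98), Usp17le (-2.97), Gm2022 (-2.90), Usp17ld (-2.59), Tdpoz3 (-2.54), Zfp352 (-2.51), Spopfm1 (-2.49), Ubtfl1 (-2.46) and Spopfm2 (-1.80). The call of Spopfm2 was lost or reversed in 13 of its 18 alternatives, and those of Gm2022 and Duxf3 in 8. With a pseudocount of 5 the differences of Ankrd22 (-1.53), Phf11a (-1.17), Tdpoz3 (-1.41), Spopfm1 (-1.26) and Zfp352 (-1.47) were not called. Without 1 library Tdpoz3 lost its call in 2 fits, and Spopfm1, Zfp352, Usp17le and Usp17ld in 1 each.

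It was wider or less negative in 6 genes: Slc19a3 (3.06), Eomes (1.89), Eva1a (1.61), Zfp516 (1.33), Csrnp3 (1.32) and Icam1 (1.09). The call of Zfp516 was lost in 14 of its 18 alternatives, among them edgeR, a pseudocount of 5, no filter and 11 of the 12 fits without 1 library. Without 1 library those of Icam1, Csrnp3, Eva1a and Eomes were lost in 8, 7, 5 and 3 fits. The call of Slc19a3 held in all 18 alternatives. Groups of 3 libraries were not tested for outlying samples.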

How the results depend on the processing

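No paired analysis was possible because the recovered libraries carry no replicate number. Limits: the reads of the most abundant features could not be recovered, 3 libraries a group set the precision, and multi-copy genes share reads placed at random.

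Genes. Higher calls fell from 2587 to 1695 with a mean of at least 50, and lower calls to 158 at a log2 difference of at least 2. The calls on the difference between treatments (15 higher, 171 lower) became 41 and 308 with DESeq2. The lower ones became 108 with a pseudocount of 5, and the higher ones 4 at a log2 difference of at least 2. With a pseudocount of 5 the difference of Spopfm2 turned to 0.11. Leaving out 1 library at a time gave 2222 to 2754 higher and 899 to 1189 lower genes, and 3 to 18 higher and 45 to 284 lower differences.

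Repeats. Rescaling to a median of 0 left 129 higher and gave 49 lower and 1 lower difference between treatments, and edgeR with TMM gave 168 and 105, against 572 and 2. Lower calls were 5 with no filter and 1 with a mean of at least 50. At a log2 difference of at least 2, 265 were higher and 0 lower by limma. Leaving out 1 library gave 444 to 671 higher and 1 to 6 lower, and 0 to 1 lower differences between treatments. Beyond what the alternatives' own construction shows, the cause was not tested.

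Of the main counts, 45 values under the other alternatives and 80 without 1 library stayed within 1.5 times. Of the values for named genes and repeats, 2332 kept direction and side of the threshold, 30 newly passed it, 21 no longer passed it and 1 changed sign. Without 1 library these were 4020, 38 and 106, with no change of sign.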
